A study of Mus musculus with 24 samples.

Results

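The ionotropic and metabotropic receptors for glutamate, GABA and glycine were followed across 24 brain regions of interest as a set of 50 receptor subunit genes among 19962 probe targets. Members were taken by symbol: 4 AMPA (Gria), 5 kainate (Grik), 7 NMDA (Grin) and 8 metabotropic glutamate (Grm) receptor genes, 6 alpha, 3 beta, 3 gamma, 3 rho and 4 other (Gabrd, Gabre, Gabrp, Gabrq) GABA-A subunits, 2 GABA-B (Gabbr) and 5 glycine receptor (Glra, Glrb) genes. Regions came from MG-cKO males, BMM-cKO males, WT males, MG-cKO females, BMM-cKO females and WT females, with 4 regions in each group. The series title concerns Lyn, a Src-family tyrosine kinase, in macrophages after subarachnoid haemorrhage (SAH), and the design text names the WT group WT-SAH. The labels give neither the meaning of MG and BMM, nor the promoter that drives the knockout, nor the age of the mice. Brains had been fixed by perfusion and cut frozen, and the sections were stained for Tmem119 and Iba-1. GeoMx profiling releases probe tags from a chosen area of tissue, so each value is the RNA of all cells in that area. Fewer cells of a type and less RNA per cell cannot be told apart. The names place every region of males on scan 2 and every region of females on scan 3. Names of male regions alone carry a plus sign after TMEM119, so sex and scan cannot be told apart.

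AMPA, kainate and NMDA receptors are cation channels opened by glutamate. They are built from 4 subunits and carry fast excitatory transmission in the brain. NMDA receptors need Grin1 together with Grin2 or Grin3 subunits, and metabotropic glutamate receptors act through G proteins. GABA-A and glycine receptors are chloride channels built from 5 subunits that carry fast inhibition, most often as alpha, beta and gamma subunits together at GABA synapses, while GABA-B receptors are G-protein-coupled pairs of Gabbr1 and Gabbr2. In brain tissue neurons hold most of these transcripts, although astrocytes, oligodendrocyte precursors and, at lower levels, microglia use some of them.

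The promoter windows of 5 members are shown because these members were called in opposite directions in MG-cKO against WT females. They are the 4 members with the largest called increase there, and the member called lower, among those with a single entry in the promoter table. The lower call, that of Gabra6, was lost in 8 of 30 alternative settings, and its levels overlapped. Many of these settings left out a region of a group not compared there. Each window runs from 250 bases before to 50 after the gene start, on the gene's own strand, as given by RefSeq on build GRCm38.p6, and 36 of the 50 members had an entry. Capitals mark matches to GGGCGG (the core of the GC box that Sp1 binds) or GGACAGC (the right part of the RE1 element that the neuronal gene repressor REST binds).
Grin1: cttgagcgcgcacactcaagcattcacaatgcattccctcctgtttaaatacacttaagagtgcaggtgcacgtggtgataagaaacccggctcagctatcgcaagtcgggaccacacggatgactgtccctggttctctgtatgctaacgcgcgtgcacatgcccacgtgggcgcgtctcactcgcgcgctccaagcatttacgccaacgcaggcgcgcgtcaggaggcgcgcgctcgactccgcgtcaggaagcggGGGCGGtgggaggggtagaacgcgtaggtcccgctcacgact
Gabbr2: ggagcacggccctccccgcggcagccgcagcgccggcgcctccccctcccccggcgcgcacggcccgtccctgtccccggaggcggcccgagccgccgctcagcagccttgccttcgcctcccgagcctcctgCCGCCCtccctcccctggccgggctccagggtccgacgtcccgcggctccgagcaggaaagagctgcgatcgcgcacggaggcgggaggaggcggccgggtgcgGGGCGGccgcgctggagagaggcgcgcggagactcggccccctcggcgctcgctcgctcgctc
Gria2: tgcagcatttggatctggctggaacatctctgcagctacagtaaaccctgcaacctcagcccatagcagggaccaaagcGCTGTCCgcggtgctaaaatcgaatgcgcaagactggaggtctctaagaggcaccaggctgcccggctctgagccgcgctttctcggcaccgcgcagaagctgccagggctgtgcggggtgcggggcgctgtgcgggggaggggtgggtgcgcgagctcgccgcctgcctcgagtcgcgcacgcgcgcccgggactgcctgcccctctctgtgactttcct
Gabbr1: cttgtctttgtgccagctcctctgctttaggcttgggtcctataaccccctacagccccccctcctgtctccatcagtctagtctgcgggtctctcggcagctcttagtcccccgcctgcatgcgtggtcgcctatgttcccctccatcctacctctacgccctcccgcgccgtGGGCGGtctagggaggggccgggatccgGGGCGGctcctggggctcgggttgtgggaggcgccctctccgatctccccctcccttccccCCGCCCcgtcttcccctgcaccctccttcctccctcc
Gabra6: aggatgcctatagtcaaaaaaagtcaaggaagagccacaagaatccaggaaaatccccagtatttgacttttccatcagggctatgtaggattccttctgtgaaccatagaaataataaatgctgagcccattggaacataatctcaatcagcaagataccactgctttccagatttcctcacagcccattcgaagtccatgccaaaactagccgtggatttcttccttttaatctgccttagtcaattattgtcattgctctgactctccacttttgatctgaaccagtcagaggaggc
The windows lie at chr2:25319138-25319437 on the minus strand for Grin1, chr4:46991665-46991964 on the minus strand for Gabbr2 and chr3:80802786-80803085 on the minus strand for Gria2. Those of Gabbr1 and Gabra6 lie at chr17:37045716-37046015 on the plus strand and chr11:42321023-42321322 on the minus strand. On both strands, GGGCGG occurred 1 time in the Grin1 window, 2 times in that of Gabbr2 and 3 times in that of Gabbr1, and in 35.7% of 32851 windows of the same length. GGACAGC occurred 1 time in the Gria2 window and in 6.56% of all windows. TGACGTCA (the cAMP response element), TTCAGCACC (the left part of RE1) and TATAAA (the TATA box) had no match in the 5 windows, against 1.79%, 0.371% and 13.6% of all windows, and no 2 matches overlapped. The Gabra6 window held 42.0% G and C, while the other 4 held 60.7% to 80.3%.

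Most receptor probes lay close to background. The level of a target is given throughout as the ratio to the negative probe of the same region, a summary of probes that match no mouse transcript, so that 1 is background. Single probes scatter, however. Within a region, the log2 levels of 1191 probes for genes that brain tissue hardly uses had an SD of 0.264 to 0.411. A level a little above 1 is therefore not in itself a sign of a transcript. Over 24 regions Grin1, the obligatory NMDA subunit, had a mean level of 2.33, and Gabbr1, the GABA-B subunit that binds the ligand, one of 2.32. Gabbr2, the GABA-B subunit that couples to G proteins, averaged 1.84, and Gria1, an AMPA subunit, averaged 1.64. At the other end Gria4 averaged 0.655. All 5 glycine receptor genes averaged between 0.782 and 1.06, with Glrb, the beta subunit that binds gephyrin, the highest of them. Since yield varies from probe to probe, a level gives the distance from background and not the amount of transcript. Levels also shift between groups for all targets. The negative probe was 0.981 to 0.997 of the median target in BMM-cKO male and 0.905 to 0.955 in WT male regions. It was 0.894 to 0.945 in MG-cKO female and 0.960 to 0.990 in WT female regions. Overlap of levels carries this shift, while the changes tested below are centred on the median target. The number of members above a level of 2 was 4 to 10 in MG-cKO females, 1 to 5 in BMM-cKO females and 0 to 3 in WT females. In males it was 0 to 4 in MG-cKO, 0 in every BMM-cKO region and 1 to 5 in WT. The share of all targets above 2 differed between groups too. In females it was 4.25% to 7.99% in MG-cKO, 3.24% to 5.60% in BMM-cKO and 2.69% to 3.49% in WT regions. In males it was 0.902% to 3.09% in MG-cKO, 1.86% to 2.72% in BMM-cKO and 1.35% to 3.64% in WT regions.

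**Figure D1:**
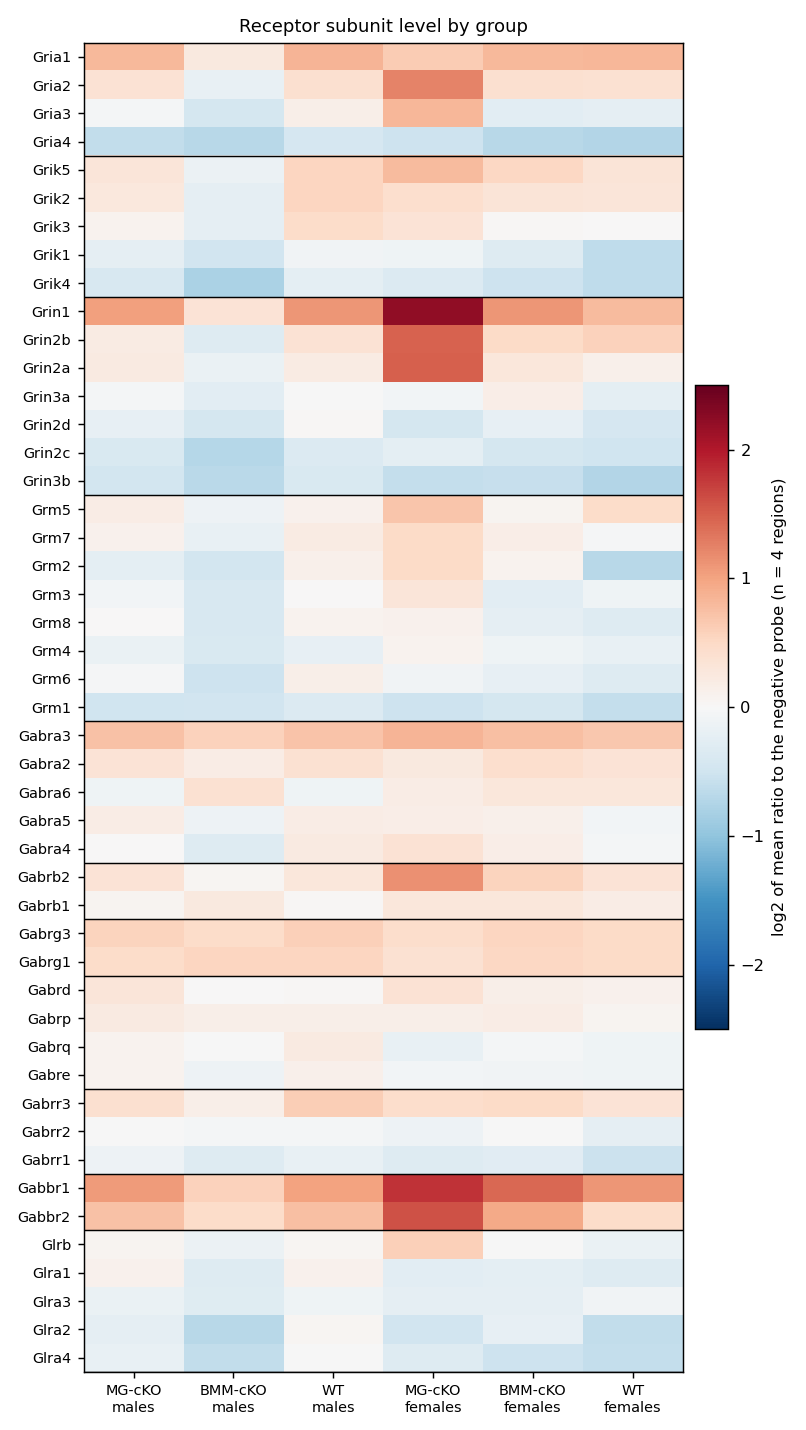
Level of the receptor subunits reported here by name or family in the 6 groups, as log2 of the mean ratio to the negative probe over 4 regions (red above background, blue below, white at background). Lines separate the families, ordered AMPA, kainate, NMDA, metabotropic glutamate, GABA-A alpha, beta, gamma, other and rho, GABA-B and glycine, and the darkest red cell is Grin1 in MG-cKO females (4.65).

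Regions held 1839234 to 10780460 tags, and a member had 47 to 824 tags in a region. Of the 50 members, 25 passed the filter for testing (mean above that of the median target), and the other 25, the glycine receptors among them, are given as levels. Changes are limma log2 changes after each region was centred on its median target, with Benjamini-Hochberg adjustment over all 9981 tested targets, and a member is called when its adjusted p is under 0.05. Nothing in the labels says which animal a region came from, and the 4 regions of a group may come from 1 slice. P-values in every test here are therefore too small if regions share animals, and the spread they measure may be that within an animal. One library stood apart. BMM-cKO female region 3 had a level of 361 for Ttr, a transcript of choroid plexus epithelium, which was 4.99 or lower in the other regions, and results that turn on it are given with and without it.

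The regions were labelled as macrophages of the brain, but neuronal transcripts led. Snap25, a synaptic vesicle fusion protein of neurons, had a mean level of 7.67 over 24 regions, against 2.05 for Aif1 (which encodes Iba-1) and 0.810 for Tmem119. Of the 16 microglia and macrophage markers, 7 averaged 1.12 or lower (Tmem119, Trem2, Tyrobp, Cd68, Itgam, Mrc1 and Cd163), and none was at 0. Lyn itself stayed near background. Its level was 0.973, 1.05, 0.878 and 1.18 in MG-cKO male regions and 1.09 to 1.22 in BMM-cKO male regions, against 1.01 to 1.05 in WT male regions. In females it was 1.01 to 1.10 in MG-cKO and 0.979 to 1.22 in BMM-cKO regions, against 1.07 to 1.16 in WT regions. Lyn was called lower in MG-cKO than in WT females (-0.23 ± 0.09, adjusted p = 0.0446) and in no other comparison with WT, at levels that overlap. Other cells of a region may hold Lyn, and whether the probe lies in the deleted part is not given, so its level does not check the labels.

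MG-cKO females had the highest group means of Grin1 (4.65), Gabbr1 (3.48), Gabbr2 (3.01), Grin2a (2.82) and Grin2b (2.76). Against WT females, 11 of the 25 tested members were higher and 1 was lower. Over all targets 17.9% were called higher and 11.9% lower, and 29.8% in either direction. The median change was 0.23 for the tested members, all of which had passed the filter, against -0.02 for all targets tested.

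All 3 tested NMDA subunits rose in MG-cKO females. Grin1 was 5.62, 2.84, 5.08 and 5.06 in MG-cKO female regions, against 1.80, 1.51, 1.85 and 1.82 in WT female regions. Every MG-cKO region lay above every WT region, although region 2 of MG-cKO stood below the other 3. The log2 change of Grin1 was 1.245 ± 0.18 (SE, adjusted p = 4.55e-06, limma), and its 95% interval ran from 0.90 to 1.59. Grin2a, a subunit that replaces part of Grin2b during development and shortens the channel's current, was 3.26, 1.95, 3.20 and 2.87 in MG-cKO regions, against 1.02, 1.08, 1.16 and 1.11 in WT regions. WT females were thus close to background for Grin2a and no MG-cKO region was. Its change was 1.21 ± 0.10 (adjusted p = 5.64e-10). Grin2b, the subunit with the slower current, was 3.24, 1.78, 2.95 and 3.07 in MG-cKO regions, against 1.33, 1.34, 1.68 and 1.60 in WT regions. The groups did not overlap for Grin2b either, and the change was 0.73 ± 0.14 (adjusted p = 0.000262). The remaining 4 NMDA genes (Grin2c, Grin2d, Grin3a, Grin3b) averaged under 1 over 24 regions.

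Of the 2 tested AMPA subunits, 1 rose in MG-cKO females. Gria2, the edited subunit that keeps AMPA receptors from passing calcium, was 2.96, 1.61, 2.56 and 2.30 in MG-cKO female regions, against 1.15, 1.20, 1.54 and 1.34 in WT female regions, a change of 0.69 ± 0.18 (adjusted p = 0.00406). The groups did not overlap. Gria1 did not pass the test, with 1.62, 1.27, 1.62 and 1.71 in MG-cKO regions, against 1.78, 1.44, 2.10 and 1.77 in WT regions and a change of -0.31 with a 95% interval from -0.67 to 0.05. The 2 AMPA subunits thus gave different calls in the same regions; the difference between them was not tested. Among kainate receptors, Grik5, a high-affinity subunit that needs a partner such as Grik2, was higher by 0.35 ± 0.10 (adjusted p = 0.0109), while Grik2 changed by -0.02 and Grik3 by 0.23 without passing. Grm5, a postsynaptic metabotropic receptor that couples to phospholipase C, changed by 0.09 and did not pass.

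GABA-A subunits split within the family in MG-cKO females. Gabrb2, a beta subunit, was 2.47, 1.43, 2.54 and 2.37 in MG-cKO regions, against 1.63, 1.00, 1.40 and 1.04 in WT regions, with a change of 0.66 ± 0.14 (adjusted p = 0.000584). Here MG-cKO region 2 fell within the WT range. Gabra6, a subunit best known from cerebellar granule cells, was called lower by -0.23 ± 0.08 (adjusted p = 0.0280), but its levels overlapped, at 1.08 to 1.24 in MG-cKO and 1.09 to 1.29 in WT regions. That call was lost in 8 of 30 alternative settings, among them scaling to the negative probe (-0.10, adjusted p = 0.384) and testing without the filter (-0.21, adjusted p = 0.0802). Leaving out MG-cKO female region 3 or 4, or WT female region 1, 3 or 4, also lost it. Many of the 30 settings left out a region of a group not compared here.

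Both GABA-B subunits rose. Gabbr2 was 3.54, 2.25, 3.16 and 3.09 in MG-cKO female regions, against 1.48, 1.17, 1.59 and 1.30 in WT female regions, a change of 0.98 ± 0.11 (adjusted p = 2.27e-07). Gabbr1 was 4.23, 2.76, 3.54 and 3.39 in MG-cKO regions, against 2.29, 1.99, 2.42 and 1.89 in WT regions, a change of 0.56 ± 0.13 (adjusted p = 0.0022). For both genes every MG-cKO region exceeded every WT region. With quantile normalization the change of Gabbr1 was 0.19 and did not pass (adjusted p = 0.203), and those of Grin1 and Grin2b were 0.78 and 0.48, still called.

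Members below the filter also differed in MG-cKO females. Glrb was 1.46, 1.16, 1.54 and 1.85 in MG-cKO female regions, against 0.877, 0.881, 0.860 and 0.946 in WT female regions, and in the fit without a filter its change was 0.62 ± 0.09 (adjusted p = 2.67e-06). That fit called 16 of 50 members higher and 0 lower, with 15.6% of all 19962 targets called in either direction. The share of all targets called higher alone was not computed for that fit. An AMPA and a metabotropic member, picked after their values were seen, had the lowest adjusted p among those the filter had removed. Gria3 was 2.16, 1.31, 1.73 and 1.91 in MG-cKO regions, against 0.877, 0.772, 0.837 and 0.930 in WT regions (change 0.92 ± 0.10, adjusted p = 5.29e-08). Grm2, a presynaptic receptor that restrains glutamate release, was 1.46, 1.11, 1.58 and 1.44 in MG-cKO regions, against 0.559, 0.598, 0.602 and 0.699 in WT regions (change 1.06 ± 0.12, adjusted p = 5.29e-08). The WT values of both genes were below the negative probe, so they carry no evidence of a transcript there. Over all 50 members, 12 had every MG-cKO region above every WT region, beside 16.9% of all targets, and 1 had the reverse, beside 1.80%.

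**Figure D2:**
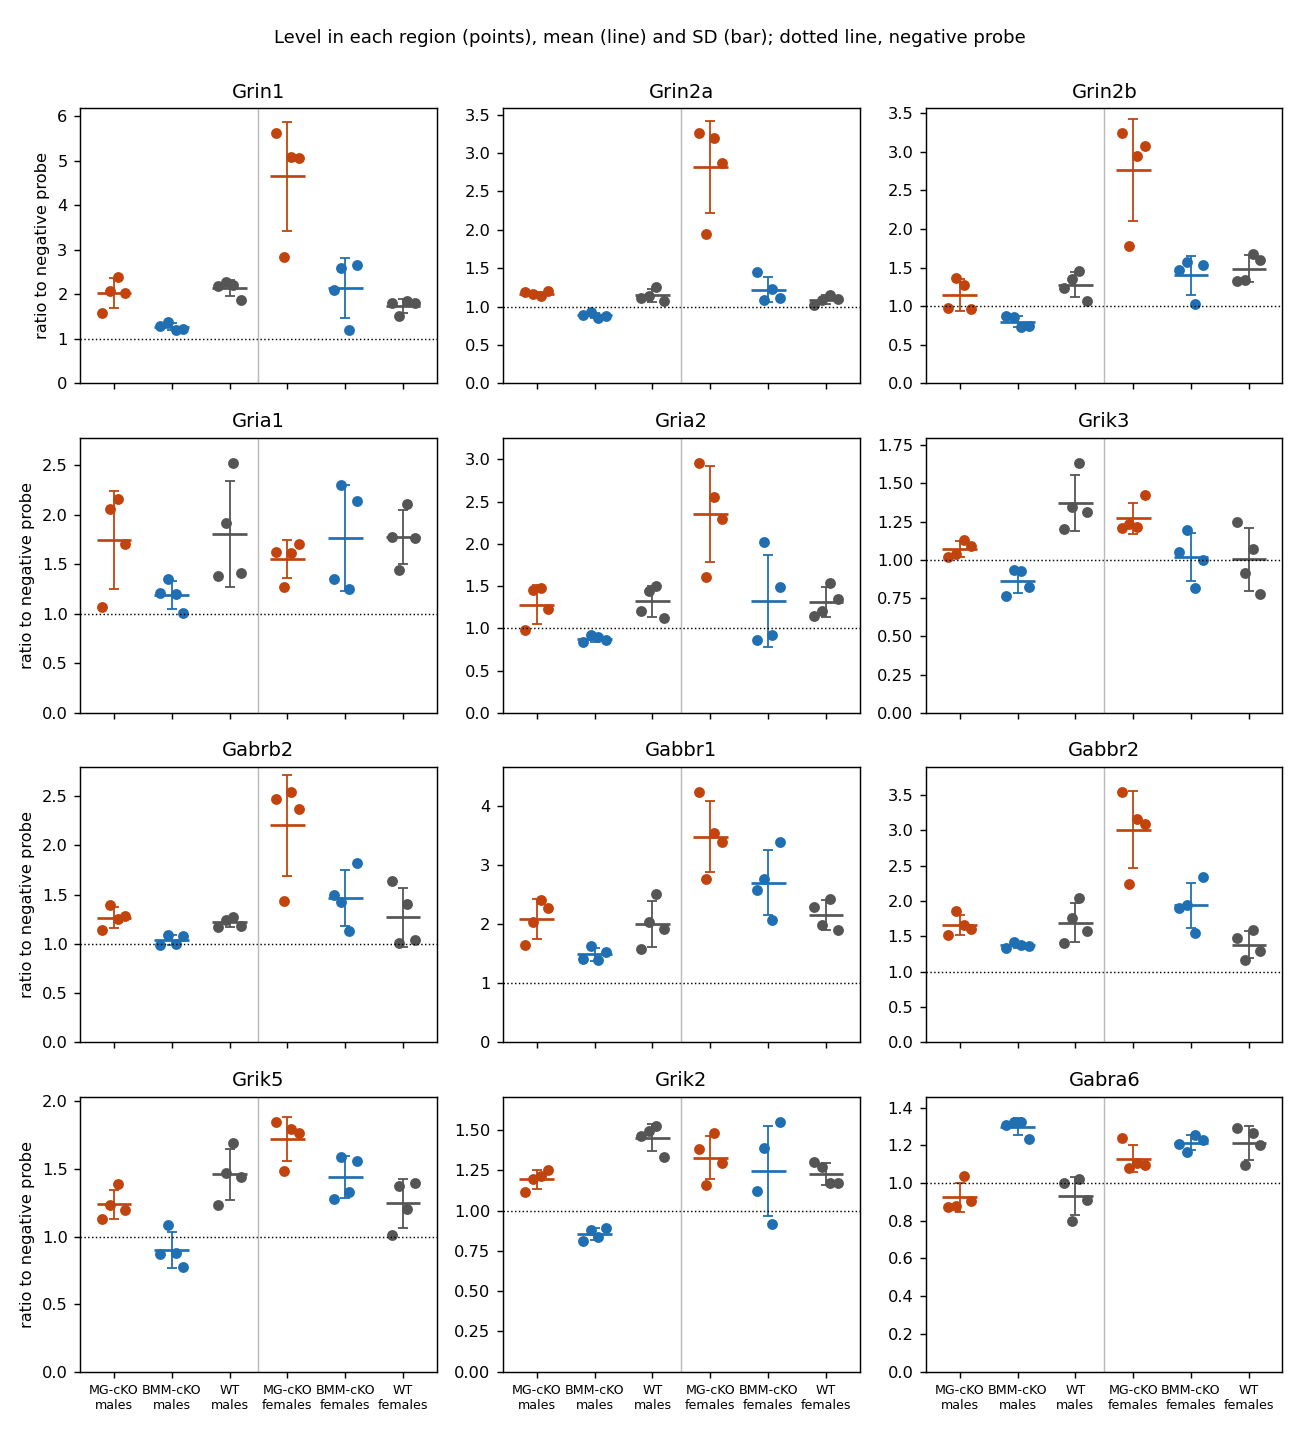
Ratio to the negative probe of selected members in each of the 24 regions (points), with the group mean (line) and SD (bar), MG-cKO in orange-red, BMM-cKO in blue, WT in grey, males left and females right of the vertical line. In MG-cKO females Grin1 ran from 2.84 to 5.62, above all other groups, while Gria1 overlapped with WT females.

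Genes that work beside the receptors were described from lists drawn up with earlier results of these data known. In MG-cKO against WT females, 17.9% of all targets were called higher and 11.9% lower, the shares to set beside each count below. There, 14 of 24 tested auxiliary and scaffold genes of glutamate receptors rose and 0 fell. They included Dlg4 (PSD-95, the main scaffold of excitatory synapses, 0.67 ± 0.15, adjusted p = 0.00151), Camk2a (a kinase of the same synapses, 1.28 ± 0.23, adjusted p = 0.000105) and Shank1 (a deeper layer of that scaffold, 1.13 ± 0.09, adjusted p = 2.75e-10). Of 14 tested auxiliary and scaffold genes of GABA and glycine receptors, 7 rose and 2 fell, and Nlgn2, the adhesion protein of inhibitory synapses, rose by 0.62 ± 0.11 (adjusted p = 0.00014). For glutamate synthesis, release and uptake, 5 of 12 rose and 1 fell. Slc17a7, which loads glutamate into vesicles in cortex and hippocampus, had the highest of these changes (2.48 ± 0.15, adjusted p = 1.13e-12), with 7.72, 4.69, 7.09 and 7.06 in MG-cKO regions, against 1.05, 1.11, 0.931 and 1.16 in WT regions. For GABA and glycine synthesis, release, uptake and chloride transport, 1 of 12 rose and 1 fell. The riser was Slc12a5, the neuronal chloride exporter KCC2 (1.07 ± 0.17, adjusted p = 3.19e-05), and the faller was Gad2, a GABA-synthesising enzyme (-0.98 ± 0.26, adjusted p = 0.00552). Cbln1, a synaptic organiser and the single tested gene of the delta receptor list, rose by 0.83 ± 0.20 (adjusted p = 0.00235).

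Markers of neurons, astrocytes and microglia also differed between these groups, where 17.9% of all targets were called higher and 11.9% lower. The summed level of 12 cortical and hippocampal excitatory neuron markers was 48.4 to 81.2 in MG-cKO female regions and 16.5 to 20.3 in WT female regions, and 9 of 10 tested markers rose. For 12 striatal projection neuron markers the sum was 14.7 to 15.4 in MG-cKO regions and 21.8 to 42.2 in WT regions, and all 8 tested markers fell. General neuron markers summed to 57.6 to 101.7 in MG-cKO regions and 22.8 to 38.3 in WT regions, with 11 of 12 higher. Astrocyte markers summed to 35.7 to 40.3 in MG-cKO regions and 17.0 to 24.8 in WT regions, without overlap, and 4 of 10 rose and 0 fell. Microglia and macrophage markers summed to 18.2 to 19.4 in MG-cKO regions and 21.1 to 22.6 in WT regions, with 10 of 10 tested markers lower. The neuron sum was lowest in MG-cKO region 2 (57.6), the region that also had the lowest Grin1, Grin2a, Grin2b, Gria2, Gabbr1 and Gabbr2 of its group. Fewer targets of any kind stood out in region 2. There 4.25% of all targets lay above a level of 2, against 7.64% to 7.99% in the other MG-cKO female regions. Where the regions sat in the brain is not given, so genotype and placement cannot be told apart, and the part of the cell mix in the receptor changes was not tested.

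**Figure D3:**
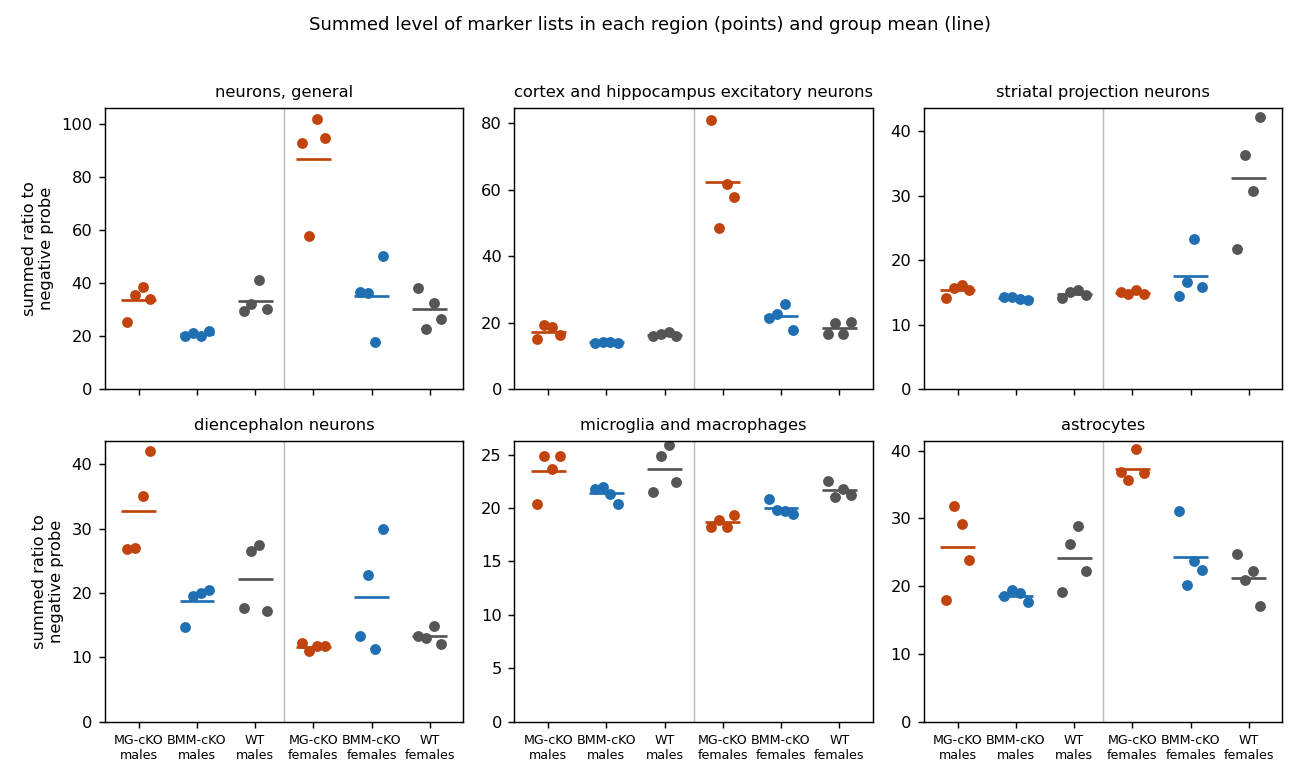
Summed ratio to the negative probe of 6 marker lists in each region (points) with the group mean (line), males left and females right of the vertical line. Cortical and hippocampal markers ran from 48.4 to 81.2 in MG-cKO females, against 16.5 to 20.3 in WT females, and striatal markers ran from 14.7 to 15.4 against 21.8 to 42.2.

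In BMM-cKO male regions no receptor gene reached a level of 2, beside 1.86% to 2.72% of all targets. Tested glutamate receptor subunits of 3 families were lower than in WT males. Against WT males, 11 of 25 tested members were lower and 2 were higher. This share, 52.0%, was close to the 53.6% of all targets called in either direction, so the total says little about receptors as such. By direction, calls of members were mostly lower, while 25.7% of all targets were called lower and 27.8% higher. That difference in direction was not tested. The median change was -0.26 for the tested members and -0.01 for all targets.

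All 3 tested kainate subunits, all 3 NMDA subunits and both AMPA subunits were lower in BMM-cKO males. Grik2 was 0.812, 0.881, 0.838 and 0.895 in BMM-cKO male regions, against 1.46, 1.49, 1.53 and 1.33 in WT male regions, a change of -0.74 ± 0.10 (adjusted p = 1.14e-06). Every BMM-cKO value was below the negative probe and every WT value above it, on levels that shift between these groups for all targets. Grik5 was 0.874, 1.08, 0.875 and 0.771 in BMM-cKO regions, against 1.23, 1.47, 1.69 and 1.44 in WT regions (-0.67 ± 0.10, adjusted p = 4.49e-06), again without overlap. Grik3, a kainate subunit of low glutamate affinity, fell by 0.64 on the log2 scale (SE 0.11, adjusted p = 3.77e-05). Grin1 was 1.30, 1.37, 1.20 and 1.22 in BMM-cKO regions, against 2.19, 2.29, 2.22 and 1.88 in WT regions (-0.73 ± 0.18, adjusted p = 0.0011). Grin1 stayed above the negative probe in all 8 regions, and the groups did not overlap. Its BMM-cKO levels exceeded background by an amount similar to the scatter of single probes, a log2 SD of 0.380 to 0.411 in BMM-cKO male regions. Grin2b changed by -0.65 ± 0.14 (adjusted p = 0.000368) and Grin2a by -0.34 ± 0.10 (adjusted p = 0.00591). Gria2 was 0.834, 0.924, 0.901 and 0.858 in BMM-cKO regions, against 1.21, 1.44, 1.50 and 1.12 in WT regions (-0.55 ± 0.18, adjusted p = 0.0098). Gria1 changed by -0.54 ± 0.18 (adjusted p = 0.014), a call lost without WT male region 3 (-0.39, adjusted p = 0.0832) or BMM-cKO male region 4 (-0.46, adjusted p = 0.0518).

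Inhibitory receptor genes moved both ways in BMM-cKO males. Gabra6 was 1.31, 1.32, 1.32 and 1.23 in BMM-cKO male regions, against 1.00, 0.796, 1.02 and 0.911 in WT male regions, a change of 0.50 ± 0.08 (adjusted p = 7.01e-06). It was the 1 member of 50 with all BMM-cKO regions above all WT regions, beside 17.5% of all targets. Gabrb1 was higher by 0.24 ± 0.10 (adjusted p = 0.0420), with overlapping levels of 1.129 to 1.246 in BMM-cKO and 0.862 to 1.18 in WT regions. That call was lost in 7 of 30 settings, many of which left out a region of a group not compared here. Leaving out any BMM-cKO male region, or WT male region 1 or 4, lost it, as did scaling to the negative probe (0.22, adjusted p = 0.103). Gabrr3, a rho subunit of GABA-A receptors best known from retina, was 1.13, 1.16, 1.06 and 1.06 in BMM-cKO regions, against 1.49, 1.38, 1.72 and 1.52 in WT regions (-0.45 ± 0.08, adjusted p = 5.69e-05). Gabbr1 changed by -0.39 ± 0.13 (adjusted p = 0.0141). Over all 50 members, 29 had every BMM-cKO region below every WT region, beside 31.1% of all targets.

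Shifts of probe background accompanied this comparison. Among 1191 probes for olfactory, vomeronasal, taste, trace amine and hair keratin-associated genes, which brain tissue hardly uses, 44.1% were called between BMM-cKO and WT males in the fit without a filter, against 7.56% between MG-cKO and WT females. The central 90% of these probes changed by -0.42 to 0.63 in BMM-cKO males. By their changes in the same fit, 7 of the 13 called members lay beyond that range (Gria1, Gria2, Grik2, Grik3, Grik5, Grin1 and Grin2b), and Gabra6, Gabrb1, Gabrr3, Gabbr1 and Grin2a were among the 6 within it. In MG-cKO females, 11 of the 12 called members lay beyond the range of -0.28 to 0.14, with Gabra6 inside it. Depth moved with the group as well: BMM-cKO male regions held 6673092 to 10780460 tags and WT male regions 1839234 to 4589569, and the part of depth in the result was not tested. General neuron markers summed to 19.9 to 21.9 in BMM-cKO male regions and 29.5 to 41.2 in WT male regions. Of them 7 of 12 were lower, beside 25.7% of all targets, and their part was not tested.

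Synaptic partner genes of the receptors were called in both directions in BMM-cKO males, with 25.7% of all targets lower and 27.8% higher. Of the glutamate receptor auxiliary and scaffold genes 12 of 24 fell and 1 rose, with Dlg4 at -0.83 ± 0.15 (adjusted p = 5.42e-05). Of the GABA and glycine receptor partners 6 of 14 fell and 2 rose. For GABA and glycine synthesis, release, uptake and chloride transport, 7 of 12 fell and 0 rose, among them Gad1, a GABA-synthesising enzyme (-0.76 ± 0.28, adjusted p = 0.0225), and Slc32a1, the vesicular GABA transporter (-0.60 ± 0.24, adjusted p = 0.0405). Of the genes for glutamate synthesis, release and uptake, 2 of 12 fell and 2 rose.

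MG-cKO and WT males gave no called receptor change. The limma test called 0 of 25 members, with 0.481% of all targets called (0.441% higher, 0.0401% lower), and 5 members had an unadjusted p under 0.05. Grik3 came closest, with 1.02, 1.04, 1.13 and 1.09 in MG-cKO male regions, against 1.20, 1.34, 1.63 and 1.31 in WT male regions. Its levels did not overlap, but the change of -0.34 ± 0.11 did not pass (adjusted p = 0.160). The change of Grin1 was -0.08, with a 95% interval from -0.42 to 0.27. Gabrd, an extrasynaptic GABA-A subunit, changed by 0.28 (adjusted p = 0.197). None of the tested genes on the 5 synaptic partner lists was called. Of the 50 members, 4 (Glra2, Grik2, Grik3 and Grm2) had every MG-cKO region below every WT region, beside 3.41% of all targets, and 0 had the reverse, beside 1.59%.

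BMM-cKO and WT females gave no called receptor change either. The test called 0 of 25 members, with 2.34% of all targets called (1.35% higher, 0.992% lower), and 2 members had an unadjusted p under 0.05. Gabbr2 was 1.90, 1.95, 1.55 and 2.34 in BMM-cKO female regions, against 1.48, 1.17, 1.59 and 1.30 in WT female regions, a change of 0.40 ± 0.11 (adjusted p = 0.0561). Grm5 was 0.958, 1.31, 0.942 and 1.01 in BMM-cKO regions, against 1.13, 1.34, 1.35 and 1.69 in WT regions, a change of -0.46 ± 0.13 (adjusted p = 0.0528). Both lay close to the threshold, and without BMM-cKO female region 3, when 28 members passed the filter, 1 member was called. In that region Grin1 was 1.20, against 2.10 to 2.67 in the other 3 BMM-cKO female regions. Of 8 tested striatal markers, 7 were lower in BMM-cKO than in WT females, and their part in these values was not tested.

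**Figure D4:**
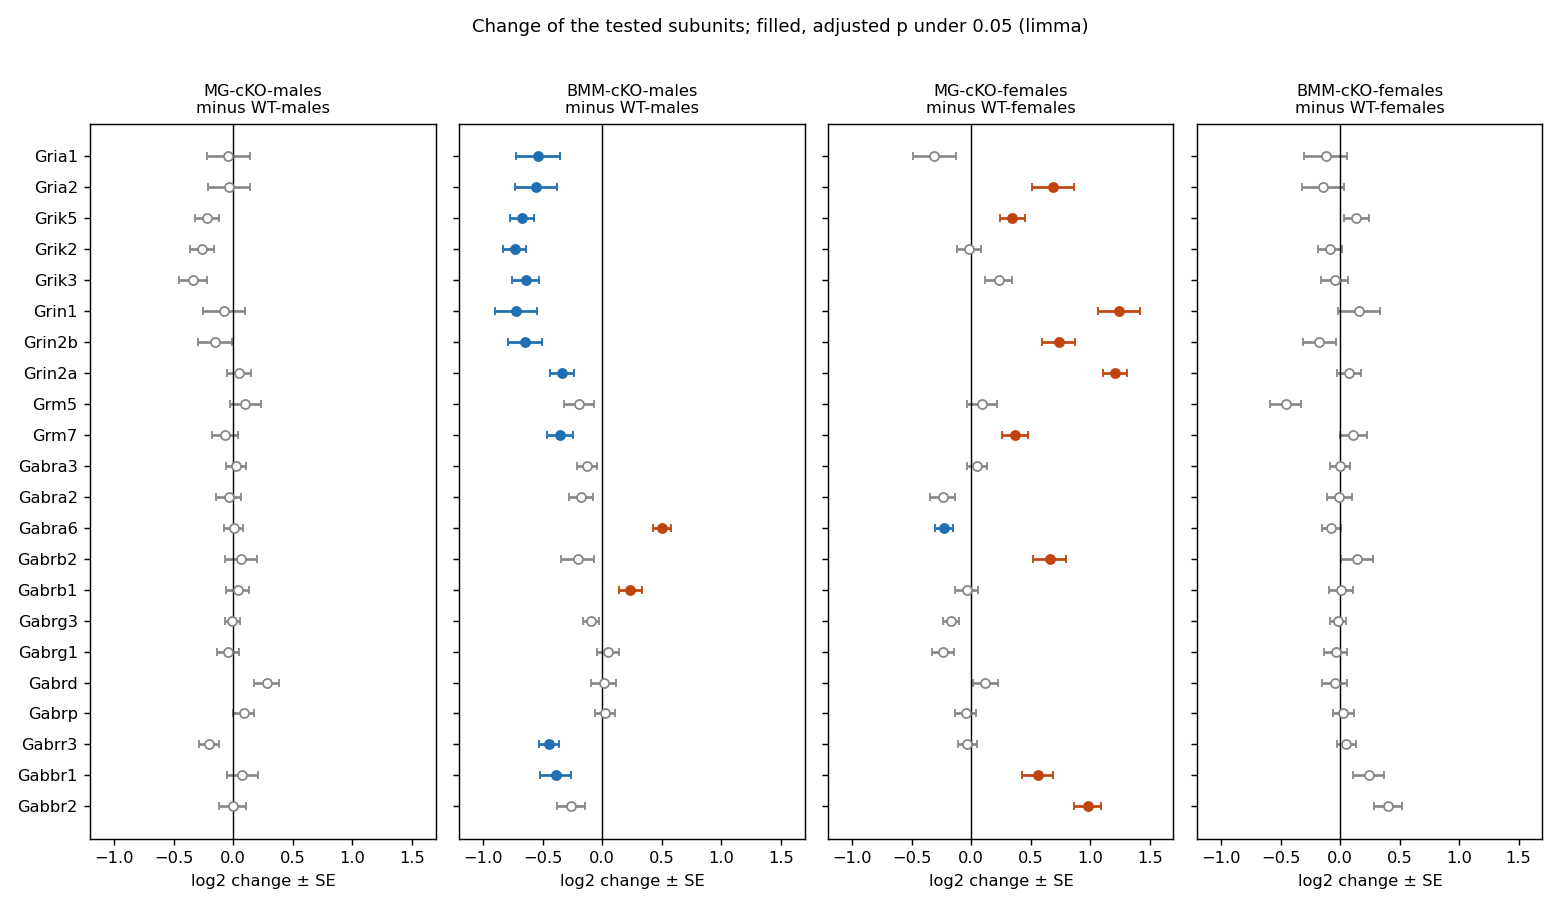
Log2 change with its standard error (limma) of tested members in the 4 comparisons with WT, filled where the adjusted p was under 0.05 (orange-red higher, blue lower) and open otherwise. Over all 25 tested members, also those not drawn, calls were 0 in MG-cKO males, 13 in BMM-cKO males, 12 in MG-cKO females and 0 in BMM-cKO females.

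The knockouts were also set against each other within each sex. These comparisons share their MG-cKO and BMM-cKO regions with those above and are not separate evidence. In males 14 of 25 members were higher in MG-cKO than in BMM-cKO and 1 was lower, with 38.5% of all targets called (18.1% higher, 20.4% lower). Grin1 differed by 0.65 ± 0.18 (adjusted p = 0.00513) and Grik2 by 0.47 ± 0.10 (adjusted p = 0.000712), while Gabra6 differed by -0.50 ± 0.08 (adjusted p = 4.32e-05). The count of 15 called members fell to 8 without MG-cKO male region 2, to 9 without MG-cKO male region 3 and to 9 without BMM-cKO male region 3. In females 9 members were higher in MG-cKO than in BMM-cKO and 0 lower, with 14.6% of all targets called (11.0% higher, 3.54% lower). Grin2a differed by 1.13 ± 0.10 (adjusted p = 1.93e-09), Grin1 by 1.08 ± 0.18 (adjusted p = 4.42e-05) and Grm5 by 0.55 ± 0.13 (adjusted p = 0.00342). Without BMM-cKO female region 3, 10 members were higher and 1 lower, and Grin1 differed by 0.82. The share of all targets called was not computed for fits that leave out a region.

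Differences between males and females were read with scan and sex inseparable. In WT regions 4 members were higher and 2 lower in males than in females, with 39.5% of all targets called (16.3% higher, 23.2% lower). Gabra6 was 1.00, 0.796, 1.02 and 0.911 in WT male regions, against 1.29, 1.09, 1.27 and 1.20 in WT female regions (-0.37 ± 0.08, adjusted p = 0.000567). Grik3 was higher in males by 0.48 ± 0.11 (adjusted p = 0.00164), but with plate as a covariate this change was 0.16 and did not pass (adjusted p = 0.575). None of the 6 called members lay beyond the central 90% of the non-brain probes in the fit without a filter (-0.51 to 0.40), of which 38.5% were called. Without BMM-cKO female region 3, which enters this fit through the filter and the shared spread, 28 members were tested and 10 called. In MG-cKO regions 1 member was higher and 9 lower in males than in females, with 19.7% of all targets called (6.06% higher, 13.7% lower). Grin2b (-1.09 ± 0.14, adjusted p = 1.26e-06), Grin2a (-1.08 ± 0.10, adjusted p = 4.91e-09) and Grin1 (-1.005 ± 0.18, adjusted p = 0.000103) were among the 9. In BMM-cKO regions 0 members were higher and 7 lower in males than in females, with 16.9% of all targets called (5.66% higher, 11.2% lower), and Gabbr1 had the largest of these changes (-0.73 ± 0.13, adjusted p = 0.000483). That count was 12 without BMM-cKO female region 3 and 4 without BMM-cKO male region 3 or 4. With plate as a covariate, which only WT female region 1 makes possible, called members numbered 4 for MG-cKO, 1 for BMM-cKO and 2 for WT. In MG-cKO, Grin2b (-0.85, adjusted p = 0.06) and Grin1 (-1.05, adjusted p = 0.0709) then lost their calls, while Grin2a kept its call. Gabbr1 lost its call in BMM-cKO (-0.83, adjusted p = 0.066). With the negative probe subtracted, Grin1 was not called in MG-cKO either (-1.10, adjusted p = 0.0748). The share of all targets called was not computed with plate as a covariate or with a region left out. Those counts therefore do not show whether members moved more than other targets.

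Whether genotype changes differed between the sexes was tested as an interaction, coded as the change in males minus the change in females. For MG-cKO 10 members were called, all negative, with 27.1% of all targets called (12.8% positive, 14.2% negative). Grin1 changed by -0.08 in males and 1.245 in females, an interaction of -1.32 ± 0.25 (adjusted p = 0.000407). Grin2a had an interaction of -1.16 ± 0.14 (adjusted p = 2.16e-06), Gabbr2 of -0.98 ± 0.16 (adjusted p = 9.69e-05) and Grin2b of -0.89 ± 0.20 (adjusted p = 0.002). For BMM-cKO 9 members had a negative and 1 a positive interaction, with 45.7% of all targets called (24.2% positive, 21.5% negative). Grik5 changed by -0.67 in males and 0.14 in females (interaction -0.81 ± 0.14, adjusted p = 7.62e-05). Gabra6 changed by 0.50 in males and -0.07 in females (interaction 0.58 ± 0.11, adjusted p = 0.000171). In the fit without a filter, 30.0% of the non-brain probes were called for the BMM-cKO interaction. Their central range, as defined above, was -0.44 to 0.73. By changes in that fit, 6 of the 10 called members lay beyond this range, Grik5 among them, while Gabra6 lay within it. For MG-cKO all 10 called members lay beyond the range of -0.27 to 0.43. Without BMM-cKO female region 3 the BMM-cKO count was 17 of 28 tested, and the share of all targets in that fit was not computed. The male and female changes came from different scans, so a difference in placement or scan cannot be told apart from one of sex.

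**Figure D5:**
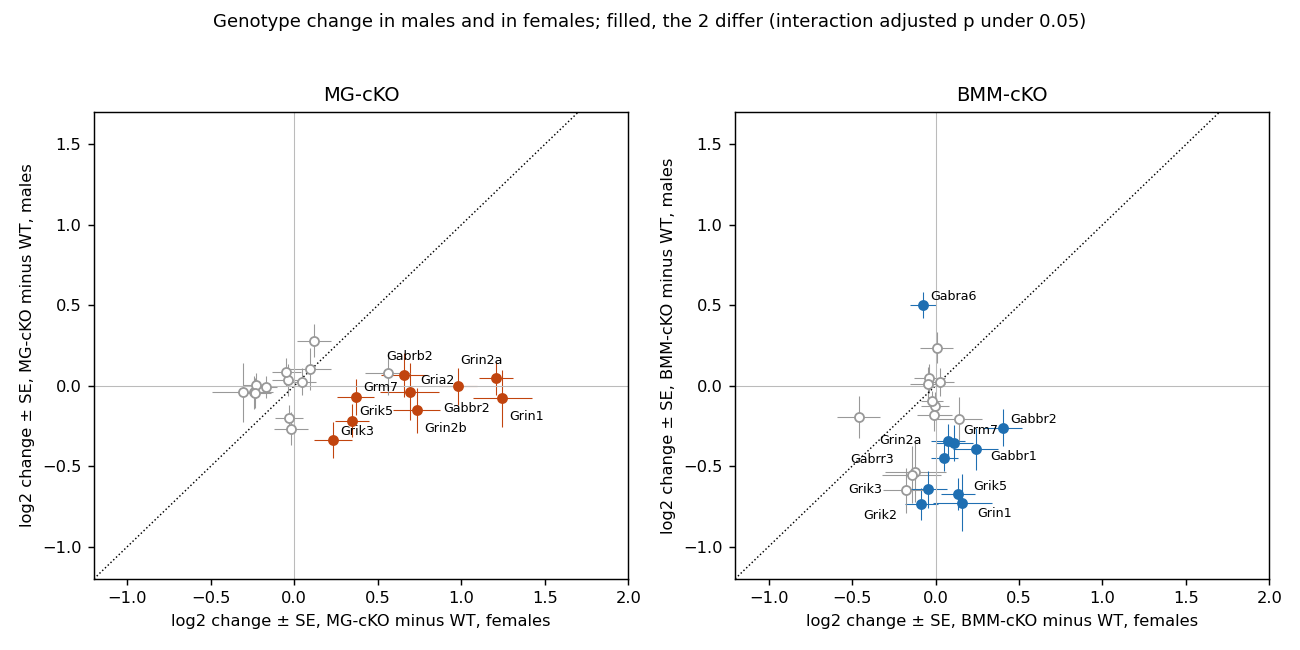
Log2 change against WT with its standard error in males (vertical axis) and in females (horizontal axis) for tested members, MG-cKO left and BMM-cKO right. Points are filled and named where the interaction passed (adjusted p under 0.05), and the dotted line marks equal change. MG-cKO points spread along the female axis up to 1.245 (Grin1), and BMM-cKO points along the male axis between -0.74 and 0.50.

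The fit without a filter tested all 50 members, also those at background. It called 26 members between BMM-cKO and WT males, with 44.4% of all targets called, and 1 between BMM-cKO and WT females, with 0.751% of all targets called. Between MG-cKO and WT males it called 0, with 0.200% of all targets called. Between the knockouts it called 17 members in males, beside 28.2% of all targets, and 14 in females, beside 7.95%. Between the sexes it called 16 in MG-cKO, 9 in BMM-cKO and 14 in WT, beside 18.0%, 7.59% and 34.9% of all targets. For the interactions it called 14 members for MG-cKO and 19 for BMM-cKO, beside 14.3% and 33.7%.

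Some groups of GABA-A genes that neighbour each other in the mouse genome were set side by side. Other such groups hold members not reported here one by one and are left out, so the values below do not cover all neighbours. In the RefSeq table (GRCm38.p6) Gabrg1, Gabra2, Gabra4 and Gabrb1 follow each other on chromosome 5 with 1 other coding gene between them. In MG-cKO against WT females Gabrg1 (-0.24), Gabra2 (-0.24) and Gabrb1 (-0.04) did not pass and Gabra4 was not tested. On chromosome X, Gabra3 (0.05) did not pass in that comparison and its neighbours Gabre and Gabrq were not tested.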

How the data were processed

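Tags of 24 regions were read by sequencing, per the labels' protocols. The deposited values are signal per target and region; no file or label records how the authors counted or normalized them. Within each deposited signal column, 99.98% to 99.985% of values were whole multiples of 1 step within 0.01, which gave tag numbers. The geometric mean of the signal was equal within a group but ran from 105.9 to 388.2 between groups, so deposited levels were not compared between groups. Here log2(value + 1) was centred on each region's median over the 9981 targets above the median target, and tested with limma 3.58.1 (lmFit, eBayes with trend) in R 4.3.3, with 1 coefficient per group over 24 regions and Benjamini-Hochberg adjustment at 0.05. Levels are ratios to the negative probe, and tag counts of single regions cover counting error only. Groups came from the animal group label. Replicate numbers follow deposition order, and nothing says that regions are separate animals, so p-values measure the spread between regions.

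Members, lists and tests were chosen with earlier results of these data known. Named members are the highest of each family, those averaging 2 or more in a group, and in each comparison up to 8 (between genotypes) or 5 (between sexes, interactions) called members per direction with the largest change. Marker, partner and non-brain probe lists are described without a test of their own. The procedure was tested on simulated data. Alternatives were no filter, scaling to the negative probe, quantile normalization, subtraction of the negative probe, a pseudocount of 10, plate as a covariate, fitting 2 groups alone and leaving out each region. Some members are not reported here one by one, though they enter the counts of members. A further 12 columns, whose names match no single sample, were not used.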

Additional observations from a re-analysis of the deposited data

Results flagged for a closer look

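Of the interactions of genotype with sex that passed the limma test, 10 are given here, taken from up to 5 with the largest change in each direction for each genotype, and others passed with smaller changes. For MG-cKO the change in males minus that in females was -1.32 for Grin1, -1.16 for Grin2a, -0.98 for Gabbr2 and -0.89 for Grin2b. For BMM-cKO it was -0.89 for Grin1, -0.81 for Grik5, -0.66 for Gabbr2, -0.65 for Grik2 and -0.63 for Gabbr1, against 0.58 for Gabra6. In the fit without a filter, the interaction of Gabra6 lay within the central range of the non-brain probes (-0.44 to 0.73). Those of the other members named here lay beyond the range for their genotype. Males and females were on different scans.

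Single regions stood away from the other 3 of their group for 6 of 108 combinations of 18 named members and 6 groups, by Dixon's criterion for 4 samples. Chance alone gives about 1 in 20. Gabrb2 was 1.43 in MG-cKO female region 2, against 2.37 to 2.54 in the others. Grin1 was 1.51 in WT female region 2, against 1.80 to 1.85 in the other 3. Grik3 was 1.43 in MG-cKO female region 4, against 1.21 to 1.23. Gabrg3 was 1.71 in WT male region 3, against 1.40 to 1.45. Gabrd was 1.22 in BMM-cKO female region 1, against 1.06 to 1.07. Glrb was 0.843 in BMM-cKO male region 1, against 0.927 to 0.931.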

How the results depend on the processing

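Of 64 changes of named members, 36 kept direction and call under every alternative run, 28 lost the call under at least 1, and 0 reversed. Leaving out 1 region at a time, the number of called members ran from 0 to 0 for MG-cKO against WT males, 11 to 17 for BMM-cKO against WT males, 9 to 15 for MG-cKO against WT females and 0 to 2 for BMM-cKO against WT females. It ran from 8 to 19 for MG-cKO against BMM-cKO males, 9 to 12 for MG-cKO against BMM-cKO females, 4 to 10 between WT males and females, 9 to 14 between MG-cKO males and females and 4 to 12 between BMM-cKO males and females. For the interactions it ran from 7 to 13 (MG-cKO) and 9 to 17 (BMM-cKO). Without the filter, which tests members near background, called members numbered 26 (2 higher, 24 lower) for BMM-cKO against WT males, 1 for BMM-cKO against WT females, 14 for MG-cKO against BMM-cKO females, 14 between WT males and females, 16 between MG-cKO males and females and 19 for the BMM-cKO interaction. For BMM-cKO against WT females the number was 1 when scaled to the negative probe, 2 with quantile normalization, 1 with the negative probe subtracted and 1 with plate as a covariate. With the negative probe subtracted it was 5 between MG-cKO males and females and 5 for the MG-cKO interaction, and in MG-cKO against WT females Grin2b (1.39, adjusted p = 0.111) and Gria2 (1.75, adjusted p = 0.0660) lost their calls. Plate as a covariate left 2 called members between WT, 4 between MG-cKO and 1 between BMM-cKO males and females. The cause of these moves was not tested. Shares of all targets called were computed for the main fit and the fit without a filter alone. Counts under the other settings therefore do not show whether members moved more than other targets. On the deposited scale the median log2 change of all targets was 1.49 for BMM-cKO against WT males and 0.30 for MG-cKO against WT females, and how the groups were scaled before deposit is not given in the sources used here. The planned edgeR test on recovered tags was not run, because a unit check of the files did not accept the deposited signal as whole tags (99.98% to 99.985% of values were whole), and the fit of 2 groups alone does not apply to interactions. No paired analysis was possible because the labels give no replicate numbers that pair regions across groups. Depth limits members near background, where counting error is large beside a small excess over the negative probe.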
